A study of Homo sapiens with 6 samples.

Results

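The axon guidance ligands and receptors of U87-MG cells were examined. The group was chosen by gene symbol alone and holds the semaphorins of classes 3 to 7, the plexins and neuropilins, the ephrins and Eph receptors, the slits, the netrins, and the receptors ROBO, UNC5, DCC and NEO1. It comprised 72 of the 61806 genes in the table. By role there were 20 semaphorins, 11 plexins and neuropilins, 8 ephrins, 14 Eph receptors, 9 slits and netrins, and 10 receptors of the ROBO, UNC5, DCC and NEO1 kind.

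U87-MG is an established human glioblastoma cell line, which the labels call a glioma. RNA was sequenced from 3 libraries of cells labelled NC (negative control, genotype given as wildtype) and 3 libraries of cells labelled GRIK1 siRNA (genotype given as GRIK1 knockdown), to ask which genes change when GRIK1, a subunit of the kainate class of glutamate receptors, is knocked down. Titles name siRNA and the design text names shRNA, no agent dose or time is given, and the labels do not say if the numbers 1 to 3 stand for repeats or for different siRNA sequences. Nothing in the labels says that libraries came from separate cultures, so p-values measure only the spread between these libraries, which may be technical. All libraries came from the same cell line.

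Guidance cues are secreted or membrane-bound proteins that attract or repel growing axons and migrating cells. Semaphorins signal through plexins, and the secreted class 3 semaphorins need a neuropilin to hold the ligand. Ephrins and Eph receptors are both membrane proteins and signal at contacts between cells. Slits signal through ROBO receptors, and secreted netrins such as NTN1 signal through DCC, NEO1 and UNC5 receptors. Most of these pathways end on small GTPases and on the actin cytoskeleton, and in glioma cells they are known for their part in migration and in exchange with blood vessels.

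The libraries held between 11099909 and 14006968 counts, and NC library 3 stood apart from the others. The correlation of log2 levels between NC libraries 1 and 2 was 0.99, whereas NC library 3 gave 0.96 and 0.97 against them. GRIK1 itself had 18, 9 and 8 counts in NC. Its counts were 15, 20 and 20 in the libraries labelled GRIK1 siRNA. In FPKM (counts scaled to the exonic length of the gene and to the total count of the library) this was 0.233 ± 0.131 (SD, n = 3) against 0.34 ± 0.0436 (SD, n = 3). GRIK1 was therefore not lower in the libraries labelled as the knockdown, and the difference of 0.12 on the log2(FPKM + 1) scale gave p = 0.4 in a two-sided exact permutation test, where 3 against 3 cannot go below 0.1. Every direction given here is between libraries as labelled. Of the markers of a mesenchymal glioblastoma line, 6 of 6 were at 1 FPKM or more in every library, with summed levels of 1087.57 to 1735.56 FPKM in NC and 1658.34 to 1729.51 FPKM in GRIK1 siRNA. Only 1 of 7 glial lineage markers reached that level, with AQP4 listed at 0 in every library. Of the markers of neurons 1 of 5 reached it, of microglia and macrophages 1 of 5 (AIF1, CX3CR1 and TYROBP at 0), of endothelium 0 of 5, and of epithelium 0 of 4 (KRT14 at 0).

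The data first gave a picture of which guidance genes these cells transcribe. In the NC libraries 29 of the 72 genes had a mean level of at least 1 FPKM, and 9 had at least 10 FPKM. Plexins and neuropilins summed to 159.87 and 152.53 FPKM in the first 2 NC libraries. Semaphorins summed to 107.12 and 104.09 FPKM there. In NC library 3 the order was the other way round, with 52.71 FPKM for plexins and neuropilins and 72.9 FPKM for semaphorins. The other kinds were lower, and the lowest was that of slits and netrins, at 7.57 and 7.33 FPKM. A few genes made up most of each sum, since the 3 highest genes of a role took between 79.3% of the NC level for semaphorins and 91.1% for the ROBO, UNC5, DCC and NEO1 receptors.

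**Figure D1:**
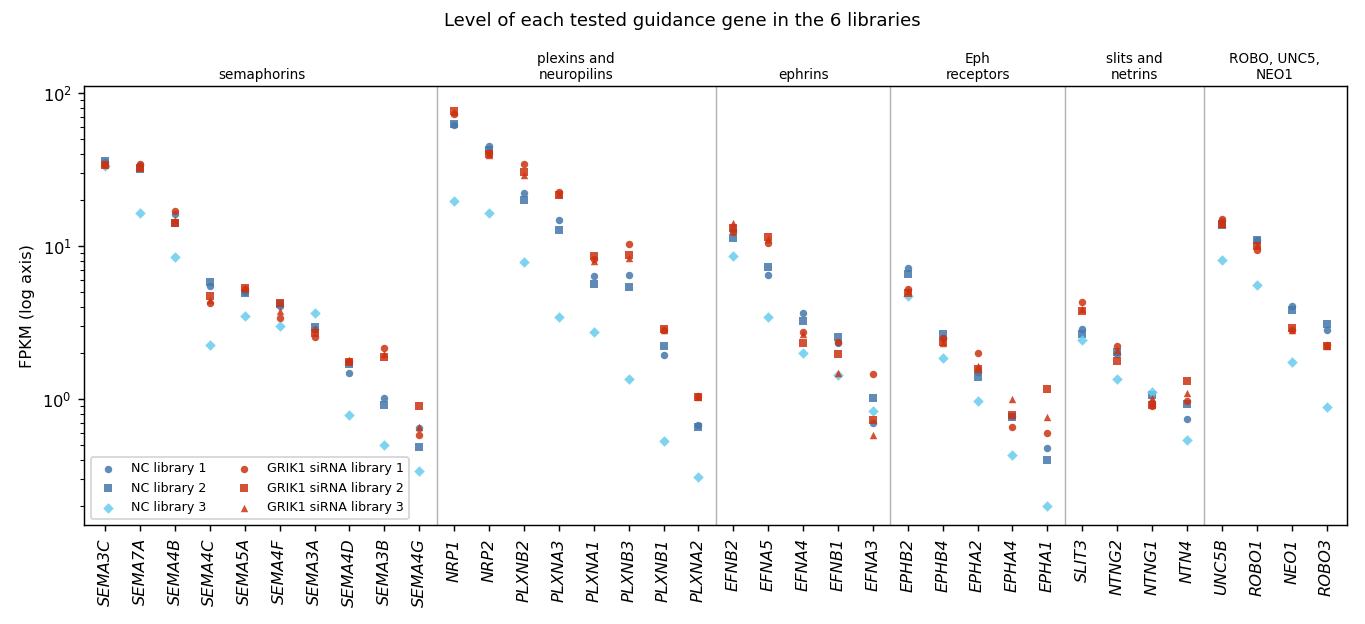
FPKM (log axis) of the 36 tested guidance genes, grouped by role and ordered by the mean of the NC libraries. Each point is 1 library, blue for NC (pale diamond: NC library 3) and red for GRIK1 siRNA. NC library 3 is the lowest point for most of the genes, and NRP1 has the highest mean of the NC libraries.

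Both neuropilins were among the highest members. NRP1, which binds class 3 semaphorins and VEGF, had 61.58, 62.72 and 19.54 FPKM in NC (libraries 1, 2 and 3 in this order, here and in what follows) and 72.80, 76.55 and 75.03 FPKM in GRIK1 siRNA. NRP2 had 45.20, 42.47 and 16.45 FPKM in NC and 40.67, 39.64 and 39.12 FPKM in GRIK1 siRNA. In both genes NC library 3 was far below every other library. The next receptor was PLXNB2, which binds class 4 semaphorins, at 16.7 ± 7.82 FPKM in NC (SD, n = 3), followed by PLXNA3, a partner of the neuropilins, at 10.3 ± 6.06 FPKM. The means of PLXNB2 and PLXNA3 did not differ beyond this spread, to which NC library 3 added in both. Within each NC library PLXNB2 was the higher, with 22.34, 20.09 and 7.81 FPKM against 14.89, 12.64 and 3.46 FPKM. PLXND1, PLXNC1 and PLXNA4 lay below the 0.5 FPKM needed for testing, at 0.327, 0.17 and 0.03 FPKM in NC.

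Among ligands, SEMA3C was highest at 34.8 ± 1.45 FPKM in NC (SD, n = 3). It is a secreted semaphorin. It was followed by SEMA7A, a semaphorin anchored to the membrane by lipid, at 27.4 ± 9.49 FPKM, and by SEMA4B, a transmembrane semaphorin, at 13.0 ± 4.02 FPKM. The spreads of SEMA3C and SEMA7A overlapped, though SEMA3C was the higher in each NC library. EFNB2, the ephrin-B2 that binds EphB4, led the ephrins at 10.8 ± 2.09 FPKM. EFNA5 and EFNA4 followed at 5.74 ± 2.04 and 2.96 ± 0.866 FPKM. Among Eph receptors EPHB2 was at 6.15 ± 1.30 FPKM, EPHB4 at 2.36 ± 0.429 FPKM and EPHA2 at 1.29 ± 0.280 FPKM (SD, n = 3), and these 3 kept apart by more than their SD.

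Slit and netrin signalling was present mainly as receptors. UNC5B, a netrin receptor, had 12.1 ± 3.50 FPKM in NC and ROBO1, a slit receptor, had 9.13 ± 3.10 FPKM. These spreads overlapped, though UNC5B was the higher in each NC library. NEO1, a receptor for netrins and RGM proteins, had 3.21 ± 1.27 FPKM. SLIT3 was the main slit at 2.65 ± 0.22 FPKM, and SLIT1 and SLIT2 had at most 5 counts in any library. Of the secreted netrins, NTN1 had at most 9 counts and NTN4 had 0.737 ± 0.195 FPKM. The membrane-anchored netrins NTNG2 and NTNG1 were at 1.78 ± 0.376 and 1.04 ± 0.0874 FPKM.

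The classical netrin receptor DCC, ROBO2, EPHA3 and SEMA3G had 0 counts in each of the 6 libraries, which still allows up to 3 counts in a library (95% limit, counting error only). A further 8 genes, EFNA1, EFNB3, EPHA10, EPHA6, EPHA8, EPHB1, EPHB6 and UNC5D, had 3 or fewer counts in every library. In all, 36 members reached a mean of 0.5 FPKM and were tested, and 36 did not. EPHA1 and SEMA4G, at 0.36 and 0.493 FPKM in NC, passed only through the GRIK1 siRNA libraries. EPHA5 lay just outside, at 0.48 FPKM in NC and 0.473 FPKM in GRIK1 siRNA. ROBO4 and SEMA5B were among the genes too low to test, with 11, 9 and 4 counts and 0, 5 and 3 counts in NC, and 17, 18 and 27 counts and 16, 8 and 15 counts in GRIK1 siRNA. These raw counts, not scaled to depth, lay higher in the GRIK1 siRNA libraries without overlap. So did those of SEMA4A, EPHB3, NTN1, SEMA3D and UNC5A among the untested members, and the share over all untested genes was not computed. More genes of the whole table had a count in the GRIK1 siRNA libraries (26134 to 27049) than in the NC libraries (23902 to 24993). These low counts are therefore given as a description and not as a trait of the members. Neither ROBO4 nor SEMA5B was called by edgeR when the limit on low levels was dropped.

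For the comparison of groups, normalized CPM were used, which are counts scaled to the size of the library with the TMM factors of edgeR. In bulk RNA, fewer cells that express a gene and less of its RNA per cell cannot be told apart. NC library 3 is described first, because most guidance genes were low in it. Guidance genes took 0.306%, 0.295% and 0.142% of all counts in the NC libraries, the last in NC library 3. Their share was 0.329% to 0.335% in GRIK1 siRNA. Against the mean of NC libraries 1 and 2, NC library 3 was lower for 32 of the 36 tested genes (88.9%), compared with 49.1% of all genes tested. The median of its log2 ratio was -0.65 over the guidance genes and -0.02 over all genes. It had the lowest normalized CPM of the 6 libraries for 28 of 36 members (77.8%), compared with 36.3% of all genes. The guidance genes thus lay low in NC library 3 as a group, while all genes together did not. Markers of the mesenchymal line were low in it too. FN1, a matrix protein, had 66.69, 62.89 and 11.61 FPKM in NC, TNC, another matrix protein, had 155.64, 144.24 and 24.78 FPKM, and the lowest summed marker level given above is that of NC library 3. The 6 plexins had the lowest median, -1.53, and PLXNB3 the lowest value, -1.95. SEMA3A, NTNG1, EFNA3 and SEMA3C went the other way, with 0.50, 0.33, 0.16 and 0.08, and SLIT3 was level. The median GC content of transcripts was 57.8% for the tested members and 47.6% for all genes. Over the 36 members, which share the same libraries, GC content was set against the log2 ratio of NC library 3. The Pearson correlation was -0.43 and the Spearman correlation -0.36, compared with -0.29 and -0.32 over 14979 of all genes tested. The part of GC content in the values of NC library 3 was not tested. Most fold changes below are therefore given both with all 6 libraries and without NC library 3.

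**Figure D2:**
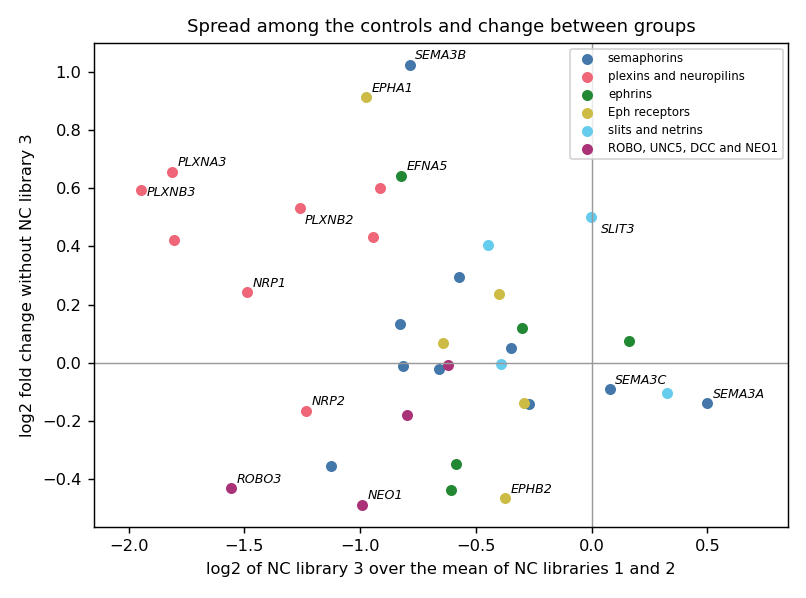
Each point is 1 of the 36 tested guidance genes, coloured by role. The x axis is the log2 ratio of NC library 3 to the mean of NC libraries 1 and 2, and the y axis is the log2 fold change of GRIK1 siRNA over NC with NC library 3 left out. Most points lie left of 0, all 6 plexins lie left of 0 and above 0, with PLXNB3 the farthest left, and SEMA3B has the highest fold change at 1.03.

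With all 6 libraries, 1 of the 36 tested guidance genes (2.78%) passed an adjusted p under 0.05, compared with 3.09% of all genes tested (edgeR quasi-likelihood test, Benjamini-Hochberg adjustment over 15870 genes). This gene was SEMA3B, which was higher in GRIK1 siRNA (1.61% of all genes were called higher) and also passed an absolute log2 fold change over 1 (1.41% of all genes). The members were thus called about as often as other genes. An unadjusted p under 0.05 was reached by 9 of 36 members and by 25.1% of all genes. DESeq2 called 5 members, namely SEMA3B, SLIT3, EFNA5, PLXNA2 and EPHA1, compared with 10.6% of all genes. The groups did not overlap for 18 of 36 members, compared with 38.5% of all genes. Of these 18, 15 were higher in GRIK1 siRNA (19.4% of all genes were higher without overlap) and 3 were lower (19.0% of all genes). The median log2 fold change of the members was 0.19, and that of all genes was -0.02.

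Without NC library 3, 17 of 36 members (47.2%) were called, compared with 35.2% of all genes. Of these, 11 were higher in GRIK1 siRNA, which was 30.6% of the members and 16.9% of all genes, and 6 were lower, which was 16.7% of the members and 18.3% of all genes. EPHA1 is among these 11, and among the 15 members higher without overlap, although it passed the limit on low levels only through the GRIK1 siRNA libraries. The median log2 fold change was then 0.06 for the members and 0.01 for all genes. With a GC correction added, 18 members were called, the 17 and SEMA3C, compared with 37.5% of all genes. The common dispersion of the counts, a measure of the spread between libraries of a group, fell from 0.0391 to 0.00298. With any one of the other 5 libraries left out instead, edgeR called 0 members, with 4 to 11 at an unadjusted p under 0.05. In each of these 5 fits it called 0 of all 15870 genes, with 2238 to 4434 at an unadjusted p under 0.05, so the loss was not particular to the members.

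**Figure D3:**
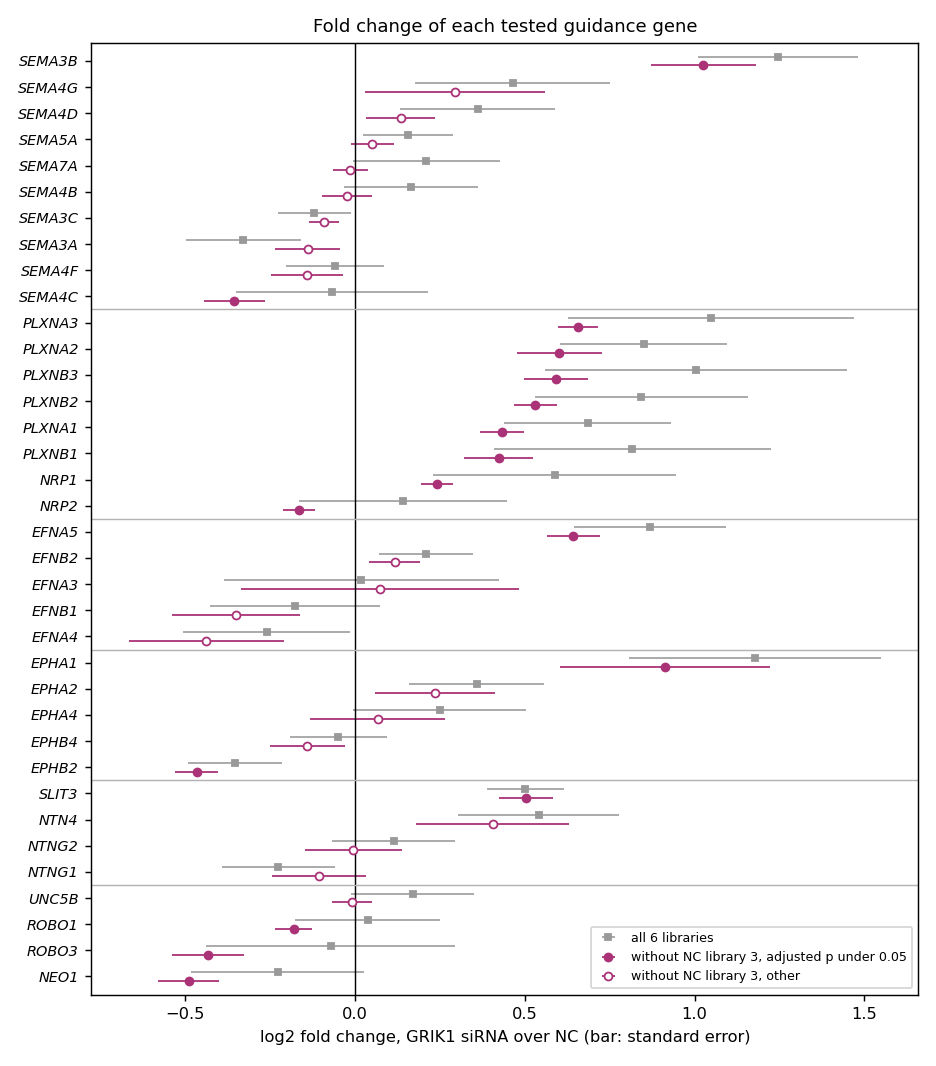
Log2 fold change of GRIK1 siRNA over NC for the 36 tested guidance genes, by role, with the standard error as a bar. Grey squares use all 6 libraries and purple circles leave out NC library 3, filled where the adjusted p was under 0.05. The 6 plexins lie to the right of 0 in both, and NRP2 and ROBO1 cross 0 when NC library 3 is left out.

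All 6 tested plexins were higher in each GRIK1 siRNA library than in each NC library, as were 19.4% of all genes. Their log2 fold changes ran from 0.69 to 1.05 with all 6 libraries, where none was called by edgeR (adjusted p from 0.101 to 0.251). Without NC library 3 they ran from 0.42 to 0.66 and 6 of 6 were called higher, with adjusted p up to 0.00322, compared with 16.9% of all genes. PLXNA2 and the other tested plexins kept this direction in every setting run, except that PLXNA2 was not tested at a limit of 1 FPKM.

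PLXNA3 lies at chrX:154458281-154477779 on the plus strand (GRCh38). It had 172, 148 and 45.6 normalized CPM in NC and 258, 247 and 252 normalized CPM in GRIK1 siRNA. The lowest GRIK1 siRNA library was thus well above the highest NC library. The log2 fold change of PLXNA3 was 1.05 ± 0.42 (SE), and 0.66 ± 0.06 once NC library 3 was left out. PLXNB2, at chr22:50274979-50307646 on the minus strand, had 161, 146 and 63.9 normalized CPM in NC and 242, 214 and 208 normalized CPM in GRIK1 siRNA. The log2 fold change of PLXNB2 was 0.84 ± 0.31 and, without NC library 3, 0.53 ± 0.06. As in PLXNA3, NC libraries 1 and 2 lay close together and NC library 3 lay far below.

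PLXNB3, which lies on chromosome X as PLXNA3 does, had 44.7, 37.8 and 10.7 normalized CPM in NC and 70.2, 59.3 and 57.2 normalized CPM in GRIK1 siRNA. The fold change was 1.00 ± 0.44 on the log2 scale, and 0.59 ± 0.09 without NC library 3. PLXNB3 overlaps SRPK3 on the same strand and an antisense gene, so reads of these genes cannot be fully told apart. PLXNA2, the lowest of the tested plexins, had 9.35, 9.16 and 4.91 normalized CPM in NC and 14.1, 14.0 and 14.0 normalized CPM in GRIK1 siRNA. PLXNA2 had a log2 fold change of 0.85 ± 0.25, and 0.60 ± 0.13 without NC library 3. PLXNA1 and PLXNB1, which complete the group, had log2 fold changes of 0.69 ± 0.24 and 0.82 ± 0.41, and of 0.43 ± 0.06 and 0.42 ± 0.10 without NC library 3. The order of the plexins by fold change thus differed with and without NC library 3, and neighbouring values lay within their standard errors.

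**Figure D4:**
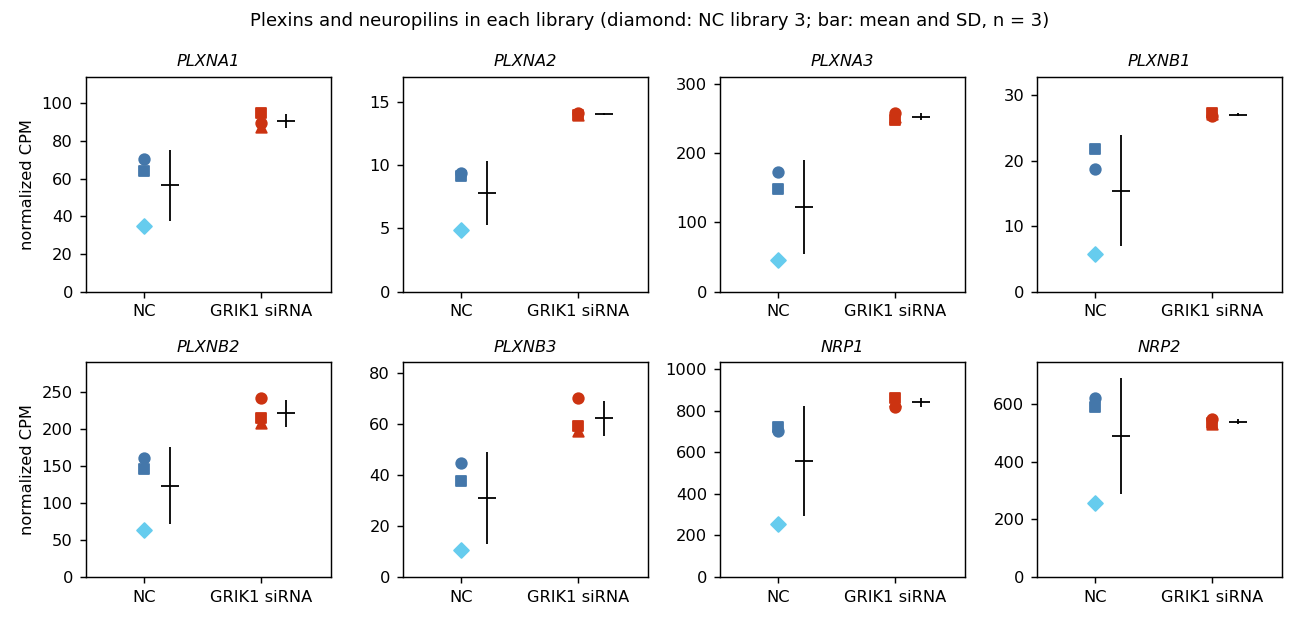
Normalized CPM of the 6 tested plexins and both neuropilins, with 1 point for each library (blue NC, pale diamond NC library 3, red GRIK1 siRNA) and the mean and SD of each group beside the points (n = 3). In the plexins and NRP1 each GRIK1 siRNA library lies above each NC library, and in NRP2 the GRIK1 siRNA libraries lie between NC library 3 and the other NC libraries.

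The neuropilins did not move together. NRP1 had 702, 722 and 254 normalized CPM in NC and 816, 859 and 846 normalized CPM in GRIK1 siRNA, with a log2 fold change of 0.59 ± 0.36 (edgeR adjusted p = 0.334). Without NC library 3 it was 0.24 ± 0.05 and was called higher. NRP2 had 621, 589 and 257 normalized CPM in NC and 550, 537 and 532 normalized CPM in GRIK1 siRNA. With a log2 fold change of 0.14 ± 0.31, it turned to -0.16 ± 0.05 when NC library 3 was left out and was then called lower. The direction of NRP2 thus rested on NC library 3.

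The ratio of genes within a library does not depend on how libraries are scaled. The ratio of NRP1 to NRP2 in FPKM was 1.36, 1.48 and 1.19 in NC and 1.79, 1.93 and 1.92 in GRIK1 siRNA. The ratio of PLXNA3 to NRP2 was 0.329, 0.298 and 0.210 in NC and 0.556, 0.547 and 0.561 in GRIK1 siRNA. For both ratios the groups were apart, and NC library 3 lay on the far side of the other NC libraries from GRIK1 siRNA. These pairs were chosen with the levels known, so the ratios restate the fold changes of their genes and add no support to them. No test was made of the ratios.

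Promoters of the plexins were read from RefSeq (GRCh38.p14), in windows of 300 bases around the gene start. Of the 72 members 61 had an entry. The GC box, GGGCGG on either strand, was found in 46 of the 61 (75.4%) and in 44.6% of all 27305 promoters. It was in 27 of the 32 tested members with an entry (84.4%) and in 19 of the 29 members not tested (65.5%). Each of the 6 tested plexins had at least 1, as did most tested members. Members' promoters had a median of 21 CpG dinucleotides, and all promoters a median of 14. The TATA box TATAAA was in 1 of 61 members and 11.95% of all promoters. The promoters of PLXNA3 (chrX:154458031-154458330, plus strand) and PLXNB2 (chr22:50301620-50301919, minus strand) are shown because these plexins were the most abundant of those that moved together, and that of SEMA3B (chr3:50272869-50273168, plus strand) because SEMA3B was the gene called with all 6 libraries. GC boxes are in capitals.
PLXNA3: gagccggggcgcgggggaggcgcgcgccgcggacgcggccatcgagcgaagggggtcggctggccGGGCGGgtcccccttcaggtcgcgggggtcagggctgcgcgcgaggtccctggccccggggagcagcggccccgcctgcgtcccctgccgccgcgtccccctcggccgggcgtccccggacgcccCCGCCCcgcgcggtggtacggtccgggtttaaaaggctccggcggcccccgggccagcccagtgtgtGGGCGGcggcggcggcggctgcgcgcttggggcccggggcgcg
PLXNB2: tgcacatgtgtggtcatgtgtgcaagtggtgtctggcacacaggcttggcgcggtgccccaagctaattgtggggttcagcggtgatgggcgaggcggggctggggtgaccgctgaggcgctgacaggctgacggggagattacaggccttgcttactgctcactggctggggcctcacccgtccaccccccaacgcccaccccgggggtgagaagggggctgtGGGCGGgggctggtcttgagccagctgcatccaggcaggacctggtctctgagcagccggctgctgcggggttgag
SEMA3B: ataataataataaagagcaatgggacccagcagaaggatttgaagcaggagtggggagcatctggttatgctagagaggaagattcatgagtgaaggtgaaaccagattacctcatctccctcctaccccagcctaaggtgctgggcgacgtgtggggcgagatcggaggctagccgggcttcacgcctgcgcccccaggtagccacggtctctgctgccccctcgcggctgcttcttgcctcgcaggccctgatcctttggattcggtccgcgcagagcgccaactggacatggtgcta
PLXNA3 had 3 GC boxes and 51 CpG dinucleotides, PLXNB2 had 1 and 14, and SEMA3B had 0 and 15. The windows of PLXNB2 and SEMA3B lie inside the gene bounds of the deposited table, so they are those of an inner start. The presence of these letters is a description of the windows and was not set against the fold changes.

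Of the 10 tested semaphorins, SEMA3B was called with all 6 libraries, and SEMA3B and SEMA4C were called without NC library 3. SEMA3B, a secreted semaphorin with known growth-suppressing activity in tumour cells, lies at chr3:50267558-50277546 on the plus strand. It had 5.79, 5.30 and 3.22 normalized CPM in NC and 12.2, 10.6 and 11.1 normalized CPM in GRIK1 siRNA. All 3 GRIK1 siRNA libraries lay above all NC libraries. The log2 fold change was 1.25 ± 0.24 (edgeR adjusted p = 0.0416), and 1.03 ± 0.15 without NC library 3. The call was kept by DESeq2 and without NC library 3, and was lost with any one of the other 5 libraries left out, with the replicate block and with both limma-trend fits. With 1 of the other 5 libraries left out the log2 fold change stayed between 1.19 and 1.41, and edgeR called 0 of all genes in those fits. SEMA3B was a low gene, with 164 counts over the NC libraries and 442 over the GRIK1 siRNA libraries. It overlaps its antisense gene SEMA3B-AS1 by 7 bases.

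The abundant semaphorins differed little. SEMA3C had 213, 218 and 228 normalized CPM in NC and 200, 201 and 206 normalized CPM in GRIK1 siRNA. These groups were apart but by a small step, with a log2 fold change of -0.12 ± 0.11 (edgeR adjusted p = 0.508), and -0.09 ± 0.05 without NC library 3. SEMA7A and SEMA4B had log2 fold changes of 0.21 ± 0.22 and 0.17 ± 0.20, and of -0.01 ± 0.05 and -0.02 ± 0.07 without NC library 3. In these genes the GRIK1 siRNA libraries overlapped NC libraries 1 and 2, and only NC library 3 lay below. SEMA4C, a ligand of PLXNB2, had 33.8, 36.2 and 16.0 normalized CPM in NC and 25.9, 28.9 and 27.2 normalized CPM in GRIK1 siRNA, with a log2 fold change of -0.07 ± 0.28, and -0.35 ± 0.09 without NC library 3, where it was called lower. The other 5 tested semaphorins had log2 fold changes from -0.14 to 0.30 without NC library 3 and were called in neither fit.

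Among ephrins EFNA5 stood out. EFNA5, a lipid-anchored ligand of EphA receptors, had 36.6, 41.9 and 22.2 normalized CPM in NC and 58.1, 63.7 and 62.0 normalized CPM in GRIK1 siRNA. Each GRIK1 siRNA library was above each NC library. EFNA5 had a log2 fold change of 0.87 ± 0.22 (edgeR adjusted p = 0.0787), and 0.64 ± 0.08 without NC library 3, where it was called. EFNB2 had 62.8, 56.4 and 48.3 normalized CPM in NC and 60.2, 63.9 and 69.6 normalized CPM in GRIK1 siRNA. These overlapped, and its log2 fold change was 0.21 ± 0.14, and 0.12 ± 0.07 without NC library 3. EFNA4 had -0.26 ± 0.25, and -0.44 ± 0.23 without NC library 3, and was called in neither fit.

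Eph receptors moved in both directions. EPHB2 had 89.0, 82.2 and 66.1 normalized CPM in NC and 63.6, 60.0 and 62.3 normalized CPM in GRIK1 siRNA, so that every GRIK1 siRNA library was below every NC library. Its log2 fold change was -0.35 ± 0.14 (edgeR adjusted p = 0.174), and -0.47 ± 0.06 without NC library 3, where it was called lower. EPHA2, a receptor well known in glioblastoma, had 6.15, 5.75 and 4.50 normalized CPM in NC and 8.01, 6.33 and 6.67 normalized CPM in GRIK1 siRNA. The groups did not overlap, but the log2 fold change of 0.36 ± 0.20, and of 0.24 ± 0.18 without NC library 3, was called in neither fit. EPHB4, the receptor of ephrin-B2, had 16.0, 17.2 and 13.6 normalized CPM in NC and 15.7, 14.8 and 14.7 normalized CPM in GRIK1 siRNA, which overlapped. Its log2 fold change was -0.05 ± 0.14, and -0.14 ± 0.11 without NC library 3, and it was called in neither fit. EPHB4 shares 704 bases with SLC12A9 on the opposite strand, so its counts may include reads of that gene.

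EPHA1 was higher in GRIK1 siRNA at a low level, with 2.23, 1.89 and 1.05 normalized CPM in NC and 2.75, 5.33 and 3.56 normalized CPM in GRIK1 siRNA. Its log2 fold change was 1.18 ± 0.37 (edgeR adjusted p = 0.117), and 0.91 ± 0.31 without NC library 3, where it was called by edgeR but not by DESeq2. EPHA1 rests on 59 counts in NC and 152 in GRIK1 siRNA and overlaps ZYX, on the opposite strand and with 6871 and 6773 counts, by 823 bases. Since the strand setting of the counting is not given in the sources used here, the value of EPHA1 is uncertain. EPHA1 passed the limit on low levels only through the group in which it is high, so its fold change is given as a description.

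Ratios within a library were also taken for further pairs of guidance genes. These pairs too were chosen with the levels known, so their ratios restate the fold changes of their genes and add no support to them. The ratio of EPHA2 to EPHB2 in FPKM was 0.209, 0.211 and 0.207 in NC, so that NC library 3 was level with the others here, and it was 0.381, 0.319 and 0.324 in GRIK1 siRNA. The ratio of EFNA5 to EFNB2 was 0.509, 0.649 and 0.401 in NC and 0.841, 0.870 and 0.777 in GRIK1 siRNA. The ratio of SEMA3B to SEMA3C was 0.0289, 0.0257 and 0.0151 in NC and 0.0642, 0.0555 and 0.0572 in GRIK1 siRNA. The groups were apart for these 3 pairs. The ratio of SLIT3 to ROBO1 was 0.262, 0.243 and 0.438 in NC and 0.458, 0.380 and 0.383 in GRIK1 siRNA, so that the groups overlapped through NC library 3. No test was made of these ratios.

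**Figure D5:**
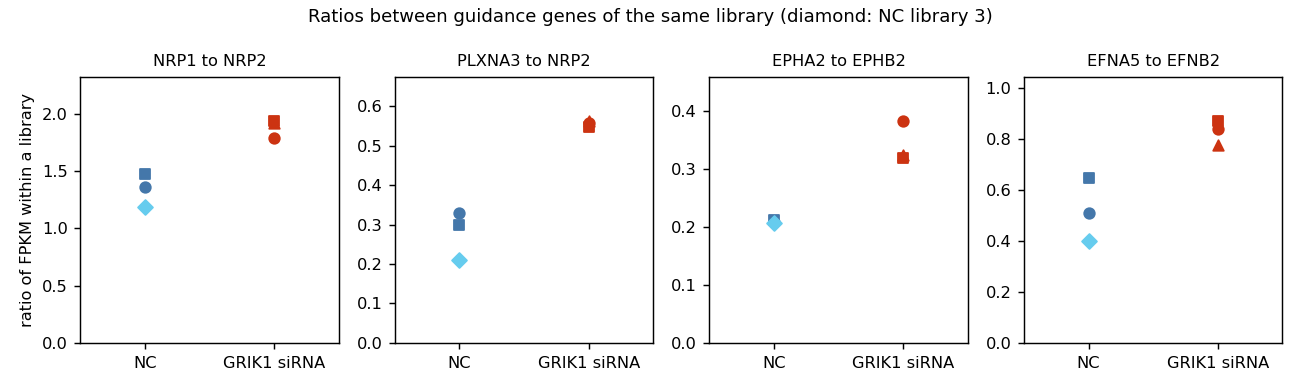
Ratios of FPKM between pairs of guidance genes within each library, with 1 point for each library (blue NC, pale diamond NC library 3, red GRIK1 siRNA). The 4 pairs shown are of 6 computed, all chosen with the levels known. The pair SLIT3 to ROBO1, for which the groups overlapped, is not shown. In each of these 4 the GRIK1 siRNA libraries lie above the NC libraries, and for EPHA2 to EPHB2 the 3 NC libraries lie between 0.207 and 0.211.

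Of the 4 tested slits and netrins only SLIT3 was called higher when NC library 3 was left out, as were 16.9% of all genes. Of the 4 tested receptors 3, ROBO1, NEO1 and ROBO3, were then called lower, as were 18.3% of all genes. With all 6 libraries no gene of either kind was called. SLIT3 had 40.4, 37.8 and 39.1 normalized CPM in NC and 59.7, 52.7 and 53.9 normalized CPM in GRIK1 siRNA. SLIT3 was the one member among those called without NC library 3 in which NC library 3 was level with the other NC libraries. SLIT3 had a log2 fold change of 0.50 ± 0.11 (edgeR adjusted p = 0.061), and of 0.50 ± 0.08 once NC library 3 was left out, where it was called. ROBO1 had 120, 120 and 69.1 normalized CPM in NC and 101, 107 and 109 normalized CPM in GRIK1 siRNA. Its log2 fold change was 0.04 ± 0.21, and -0.18 ± 0.05 without NC library 3, where it was called lower by edgeR but not by DESeq2.

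NEO1 had 32.6, 31.1 and 16.0 normalized CPM in NC and 22.5, 23.0 and 22.5 normalized CPM in GRIK1 siRNA. The GRIK1 siRNA libraries thus lay between NC library 3 and the other NC libraries. The log2 fold change was -0.23 ± 0.26, and -0.49 ± 0.09 without NC library 3, where it was called lower. ROBO3, a divergent member of the ROBO family, had 19.5, 21.6 and 6.998 normalized CPM in NC and 15.3, 15.1 and 15.3 normalized CPM in GRIK1 siRNA, with -0.07 ± 0.37, and -0.43 ± 0.11 without NC library 3, where it too was called lower. UNC5B had 98.3, 93.5 and 62.3 normalized CPM in NC and 100, 92.8 and 92.7 normalized CPM in GRIK1 siRNA. Its GRIK1 siRNA libraries were level with NC libraries 1 and 2, with a log2 fold change of 0.17 ± 0.18, and of -0.01 ± 0.06 without NC library 3. The secreted netrin NTN4 had 3.21, 4.04 and 2.65 normalized CPM in NC and 4.16, 5.56 and 4.67 normalized CPM in GRIK1 siRNA. Its groups did not overlap, but its log2 fold change of 0.54 ± 0.24, and of 0.41 ± 0.22 without NC library 3, was called in neither fit. NTNG2 and NTNG1 had log2 fold changes of 0.11 ± 0.18 and -0.23 ± 0.17. Without NC library 3 these were -0.0038 ± 0.14 and -0.11 ± 0.14, and both genes were called in neither fit.

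A list of 73 genes that carry these signals further into the cell, or act as co-receptors or further guidance cues, was set beside the members, and 53 of them could be tested. With all 6 libraries 3 of 53 (5.66%) were called, compared with the 3.09% of all genes given above. Without NC library 3 the count was 29 of 53 (54.7%), compared with 35.2% of all genes. Of these 17 were higher (32.1% of the list and 16.9% of all genes) and 12 were lower (22.6% of the list and 18.3% of all genes). The median log2 fold change of the list was 0.10, and 0.04 without NC library 3. CDK5, a kinase that phosphorylates collapsin response mediator proteins in semaphorin signalling, had 26.9, 28.1 and 31.9 normalized CPM in NC and 15.2, 16.7 and 14.1 normalized CPM in GRIK1 siRNA. Every GRIK1 siRNA library was below every NC library, with a log2 fold change of -0.92 ± 0.14 (edgeR adjusted p = 0.0303). ERBB2, a receptor tyrosine kinase that associates with B-class plexins, had 6.77, 7.90 and 5.55 normalized CPM in NC and 12.3, 12.1 and 12.4 normalized CPM in GRIK1 siRNA, and was higher by 0.87 ± 0.17 on the log2 scale (adjusted p = 0.0467). PTK2, the focal adhesion kinase, had 101, 100 and 94.8 normalized CPM in NC and 139, 144 and 148 normalized CPM in GRIK1 siRNA, and was higher by 0.55 ± 0.11 (adjusted p = 0.0433). These 3 genes were called by edgeR with and without NC library 3. Without it the log2 fold changes were -0.84 for CDK5, 0.74 for ERBB2 and 0.52 for PTK2. Each call was lost with any one of the other 5 libraries left out, where edgeR called 0 of all genes. The log2 fold changes in those 5 fits stayed between -0.98 and -0.86 for CDK5, between 0.86 and 1.00 for ERBB2 and between 0.53 and 0.57 for PTK2. The replicate block, which called 0 of all genes, also lost each call. The call of ERBB2 was further lost with library totals and with both limma-trend fits. Over all settings run, the call was lost in 6 for CDK5, in 9 for ERBB2 and in 8 for PTK2.

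Among the exchange factors that act on small GTPases below the receptors, TRIO had the highest fold change. TRIO, which activates Rac below netrin receptors, had 465, 420 and 234 normalized CPM in NC and 838, 805 and 796 normalized CPM in GRIK1 siRNA. Its log2 fold change was 1.12 ± 0.25 (edgeR adjusted p = 0.0573), and 0.88 ± 0.05 without NC library 3, where it was called. Of the 18 tested GTPases and their regulators 7 were called higher and 1 lower without NC library 3, where 16.9% of all genes were called higher and 18.3% lower. The regulators are exchange factors and the GTPase-activating proteins RASA1, SRGAP1 and SRGAP2, of which RASA1 and SRGAP1 were called higher. Of the 19 cytoskeletal proteins 6 were called higher and 6 lower. Of the 8 kinases and adaptors, among which the phosphatase PTPN11 was counted, 1 was called higher and 4, with PTPN11, lower. Of the 8 co-receptors and other cues 3 were higher and 1 lower. RAC1, a GTPase at which many of these pathways meet, had a log2 fold change of -0.02 ± 0.12, and of 0.03 ± 0.05 without NC library 3. It was called in neither fit.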

How the data were processed

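RNA-seq of 3 NC and 3 GRIK1 siRNA libraries of U87-MG cells was analysed. The authors deposited whole-number counts per gene, not normalized, and FPKM computed from them with the total count of the library and the exonic length of the gene. The submitters' processing notes name cutadapt 1.9.1, HISAT2, HTSeq and GRCh38, while the annotation and strand setting are not given in the sources used here. The formula gave 100% of the deposited FPKM values within 0.0051. The total counts were 11099909 to 14006968 per library, which limits precision for genes of few counts.

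Counts were scaled by TMM and tested by quasi-likelihood in edgeR 4.0.16 (R 4.3.3). The 15870 genes whose mean reached 0.5 FPKM were tested, with Benjamini-Hochberg adjustment over all of them. A call was an adjusted p under 0.05. The standard error given with an edgeR log2 fold change is its absolute value over the square root of the F statistic of the test. GRIK1 was compared with a two-sided exact permutation test (scipy 1.17.1). The test was tried on simulated counts. Alternatives were median-of-ratios scaling, library totals, other limits on FPKM, DESeq2 1.42.0, limma-trend (limma 3.58.1) with pseudocounts of 1 and 0.1, the replicate number as a block, other thresholds and leaving out each library. DESeq2 or a further library left out without NC library 3, and a GC correction by lowess, were added after the data were seen.

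The members and lists were chosen, and NC library 3 was singled out, with earlier results of these data known. Genes were named by a rule: members called, the 3 highest of each role in NC, members without overlap of groups and with an absolute log2 fold change over 0.5 with and without NC library 3, members whose direction turns without NC library 3 by more than 0.3 in 1 of the fits (none), called genes of the list of effectors and co-receptors, and GRIK1. PLXNA1, PLXNB1, ROBO3, SEMA4C, NTN4, SEMA3A, EFNA3, TRIO, RAC1, RASA1, SRGAP1, SRGAP2 and PTPN11 were named after their values were seen. So were ROBO4, SEMA5B, SEMA4A, EPHB3, NTN1, SEMA3D and UNC5A among the genes too low to test.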

Additional observations from a re-analysis of the deposited data

How the results depend on the processing

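The call of 1 member with all 6 libraries (490 of all 15870 genes) became 2 with library totals in place of scaling factors (492 of 15870). It was 6 of 68 members without the filter (1403 of 34080 genes) and 2 of 29 at a limit of 1 FPKM (533 of 13030). DESeq2 gave 5 (1684 of 15870) and the GC correction 2 (905 of 15529). At an adjusted p under 0.1 it was 3, where the count over all genes was not taken. Limma-trend on log2(FPKM + 1) or log2(FPKM + 0.1) gave 0 (407 and 280 of 15870 genes). With 1 library left out the number of members called was between 0 and 17, and 17 only without NC library 3. Without NC library 3, DESeq2 called 15 (26.5% of all genes) and the GC correction 18 (37.5% of all genes). With GRIK1 siRNA library 1, 2 or 3 also left out it was 18, 15 or 16 (5997, 4624 and 4540 of 15870 genes). The count of 3 of 53 effectors and co-receptors became 6 of 69 without the filter, 10 with DESeq2, 7 with the GC correction and 9 at an adjusted p under 0.1. It was 0 with an absolute log2 fold change over 1, and it lay between 0 and 29 with 1 library left out. The counts over all genes without the filter, with DESeq2 and with the GC correction are those given above. Without NC library 3 the count of effectors and co-receptors was 24 with DESeq2 and 28 with the GC correction. With GRIK1 siRNA library 1, 2 or 3 also left out it was 31, 24 or 23, in fits whose counts over all genes are given above. The causes were not tested.

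The replicate block gave 0 members, with 10 at an unadjusted p under 0.05, and 0 effectors, and it called 0 of all 15870 genes. Deviations from the group mean had r of -0.07, 0.04 and -0.04 between libraries of the same number. Between libraries of unlike number r ran from -0.06 to 0.08. With 3 libraries in a group and NC library 3 far from the others, these values cannot show whether equal numbers share a culture or day.

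Leaving out NC library 3 reversed the log2 fold change of NRP2, ROBO1, SEMA4B, SEMA7A, UNC5B and NTNG2. DESeq2 without it gave -0.16, -0.18, -0.02, -0.0106, -0.0054 and -0.0019 for these genes, and the GC correction without it gave -0.18 for NRP2 and -0.20 for ROBO1. Over all fits that left out 1 library, or NC library 3 and a further one, values ran from -0.20 to 0.35 for NRP2, from -0.20 to 0.17 for ROBO1, from -0.11 to 0.33 for SEMA4B, from -0.044 to 0.36 for SEMA7A, from -0.0467 to 0.29 for UNC5B, from -0.0718 to 0.20 for NTNG2 and from -0.19 to 0.0275 for EPHB4. EPHB4 also turned to 0.0303 with library totals, and to 0.0278 and 0.0422 with limma-trend at pseudocounts of 1 and 0.1. Median-of-ratios scaling reversed none of the 26 named genes other than GRIK1.

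EFNA3, with 60 counts over NC and 68 over GRIK1 siRNA, had a log2 fold change of 0.02 with a standard error of 0.40. Without NC library 3 its standard error was 0.41. Large standard errors were not confined to genes of few counts. That of PLXNB3, with 1056 and 2433 counts, was 0.44, and 0.09 without NC library 3.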
